A study of Mus musculus with 6 samples.

Results

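The receptors described here are those that hold B cell precursors in the bone marrow or let them leave it. They comprise 9 genes of 13426 in the table: the chemokine receptors *Cxcr4*, *Ccr7* and *Ccr9*, the sphingosine-1-phosphate (S1P) receptor *S1pr1*, the integrin subunits *Itga4*, *Itgb1*, *Itgal* and *Itgb2*, and the hyaluronan receptor *Cd44*. They were chosen by name, through the Entrez ID of each row, and each of the 9 genes had a row. RNA was sequenced from mouse bone marrow B cell precursors at the early large pre-B stage (early LPre-B) in 3 Ctrl libraries (*Upf1* Flox/Flox, *Mb1* +/+) and 3 Upf1-cKO libraries (*Upf1* Flox/Flox, *Mb1* Cre/+). Both groups came from adult, age-matched mice on a C57BL/6 background and carried the floxed *Upf1* alleles, and they differed in a Cre recombinase expressed from the *Mb1* (*Cd79a*) locus. The Cre acts in the B lineage, so the stroma and other cells of these mice kept *Upf1*, which encodes an RNA helicase of nonsense-mediated mRNA decay. The cells had been sorted as negative for lineage markers, surface IgM and CD2, positive for B220 and CD43, and large. The labels do not say whether a library came from 1 mouse or from pooled mice, so p-values measure only the spread between these libraries.

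B cell precursors develop in contact with stromal cells of the marrow that secrete the chemokine CXCL12. CXCR4 is the receptor for CXCL12, and its signal both keeps precursors in the marrow and activates integrins on their surface. The main pair of integrin subunits on these cells, ITGA4 with ITGB1 (VLA-4), binds VCAM1 on stroma and fibronectin in the matrix, whereas ITGAL with ITGB2 (LFA-1) binds ICAM molecules on other cells. S1PR1 draws lymphocytes toward the S1P of blood, CCR7 toward lymph nodes, and CCR9 toward the CCL25 of thymus and gut. Exit from the marrow depends on the balance between such retention and egress signals.

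The promoters of *Cxcr4*, the retention receptor, and of *Itga4* and *Itgb1*, which encode the subunits of VLA-4, are shown because *Cxcr4* and the VLA-4 subunits had changes of opposite sign. Each runs from 250 bases before to 50 bases after the annotated start (RefSeq, GRCm38.p6), 5′ to 3′ on the strand of the gene. The windows are chr1:128592250-128592549 on the minus strand for *Cxcr4*, chr2:79255176-79255475 on the plus strand for *Itga4* and chr8:128685404-128685703 on the plus strand for *Itgb1*. Capitals mark matches, on either strand, to the motifs named after the sequences.
Cxcr4: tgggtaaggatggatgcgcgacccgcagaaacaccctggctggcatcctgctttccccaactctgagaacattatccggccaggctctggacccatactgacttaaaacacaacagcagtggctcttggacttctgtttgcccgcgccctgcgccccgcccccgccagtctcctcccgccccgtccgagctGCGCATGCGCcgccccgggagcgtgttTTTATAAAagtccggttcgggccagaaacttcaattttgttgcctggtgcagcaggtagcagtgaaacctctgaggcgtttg
Itga4: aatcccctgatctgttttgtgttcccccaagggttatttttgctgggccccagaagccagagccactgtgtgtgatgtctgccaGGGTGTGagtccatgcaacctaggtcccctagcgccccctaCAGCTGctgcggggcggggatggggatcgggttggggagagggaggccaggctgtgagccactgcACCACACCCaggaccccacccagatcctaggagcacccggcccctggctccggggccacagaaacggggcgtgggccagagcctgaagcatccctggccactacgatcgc
Itgb1: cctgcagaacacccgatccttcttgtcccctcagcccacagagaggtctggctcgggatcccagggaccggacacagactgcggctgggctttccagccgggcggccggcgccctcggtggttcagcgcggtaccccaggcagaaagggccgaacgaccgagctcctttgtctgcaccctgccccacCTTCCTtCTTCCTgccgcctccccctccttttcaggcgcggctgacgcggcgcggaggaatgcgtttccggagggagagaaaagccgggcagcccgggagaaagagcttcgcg

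The search used CAGNTG for the B cell factor E2A, AGGAAG for factors of the ETS family, GTAAACA for factors of the FOXO family, TGTGGT for factors of the RUNX family and CACACCC for factors of the KLF family. After the *Cxcr4* sequence had been read, GCGCATGC for the factor NRF1 and TATAAA for the TATA box were added to the search. The *Cxcr4* window held GCGCATGC on both strands, overlapping in 1 run of capitals, and TATAAA on both strands in a second run. These motifs occur in 2.71% and 13.6% of 32851 promoters of the same length. Both had been seen in this window before they were searched, so these shares do not measure how unusual the matches are. No match to the other 5 motifs lay in this window. The *Itga4* window held CAGNTG, which 51.4% of promoters hold, CACACCC at 2 places, which 7.95% hold, and TGTGGT, which 16.8% hold and which here overlapped CACACCC. The *Itgb1* window held AGGAAG at 2 places, both read on the minus strand, a motif found in 35.4% of promoters. GTAAACA, found in 3.65% of promoters, had no match in these 3 windows. Promoter sequences of *Ccr9* and *Cd44* also matched by symbol, 5 of 9 in all. In the *Ccr9* window lay CAGNTG and AGGAAG, and in that of *Cd44* lay AGGAAG at 3 places. A match describes the letters of a window and is not a measured binding site.

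Libraries held between 9732498 and 11006834 recovered reads. Values are normalised reads, that is, reads plus 0.5 per 1e6 reads of effective library size. A gene was called higher or lower in Upf1-cKO libraries when limma's Benjamini-Hochberg adjusted p over all genes was below 0.05, and log2 fold changes were taken on values plus 1, so that those of scarce genes are understated. The targeted gene did not separate the groups in the direction of its label: *Upf1* averaged 241 ± 32.3 normalised reads in the Ctrl group and 297 ± 12.7 where the label was Upf1-cKO (SD, n = 3), a log2 fold change of 0.31 (limma adjusted p = 0.00696), and a value for the whole gene does not resolve the removed exons. Of 19 markers of early LPre-B and B lineage cells all had a row, and 9 were higher and 5 lower, against 27.7% and 25.0% of all genes. Their summed level was between 5239 and 5445 in Ctrl libraries and between 4629 and 4853 in Upf1-cKO libraries. *Cd24a* was the gene of this list whose group means differed most. Without it the other 18 summed to between 3861 and 4214 in Ctrl and between 4255 and 4520 in Upf1-cKO libraries, so the sum was then higher. Genes of the list moved both ways: *Kit* (8.7 in Ctrl and 39.2 in Upf1-cKO libraries) and *Dntt* (170 and 527) were higher, and *Cd79a* (221 and 73.3) was lower. A difference in maturity between the sorted cells of the groups cannot be told apart from a change within cells, and was not tested. *Spn*, which encodes the gated marker CD43, was present in both groups (217 and 225 normalised reads in Ctrl and Upf1-cKO libraries).

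Among the receptors, *Cxcr4* and *Ccr7* were lower in Upf1-cKO libraries, *S1pr1*, *Ccr9*, *Itgal*, *Itgb1* and *Itga4* were higher, and *Itgb2* and *Cd44* did not pass the test. Calls were made for 7 of 9 members, against 52.7% of all genes. In Upf1-cKO libraries 5 members were higher, against 27.7% of all genes, and 2 were lower, against 25.0%. The libraries of the groups did not overlap for 8 members, against 58.8% of all genes. The members' median log2 fold change was 0.30, and that of all genes tested was 0.01. With 9 genes, these shares are not read as a property of the receptors. In bulk samples, fewer cells of a type and less RNA per cell cannot be told apart.

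**Figure D1:**
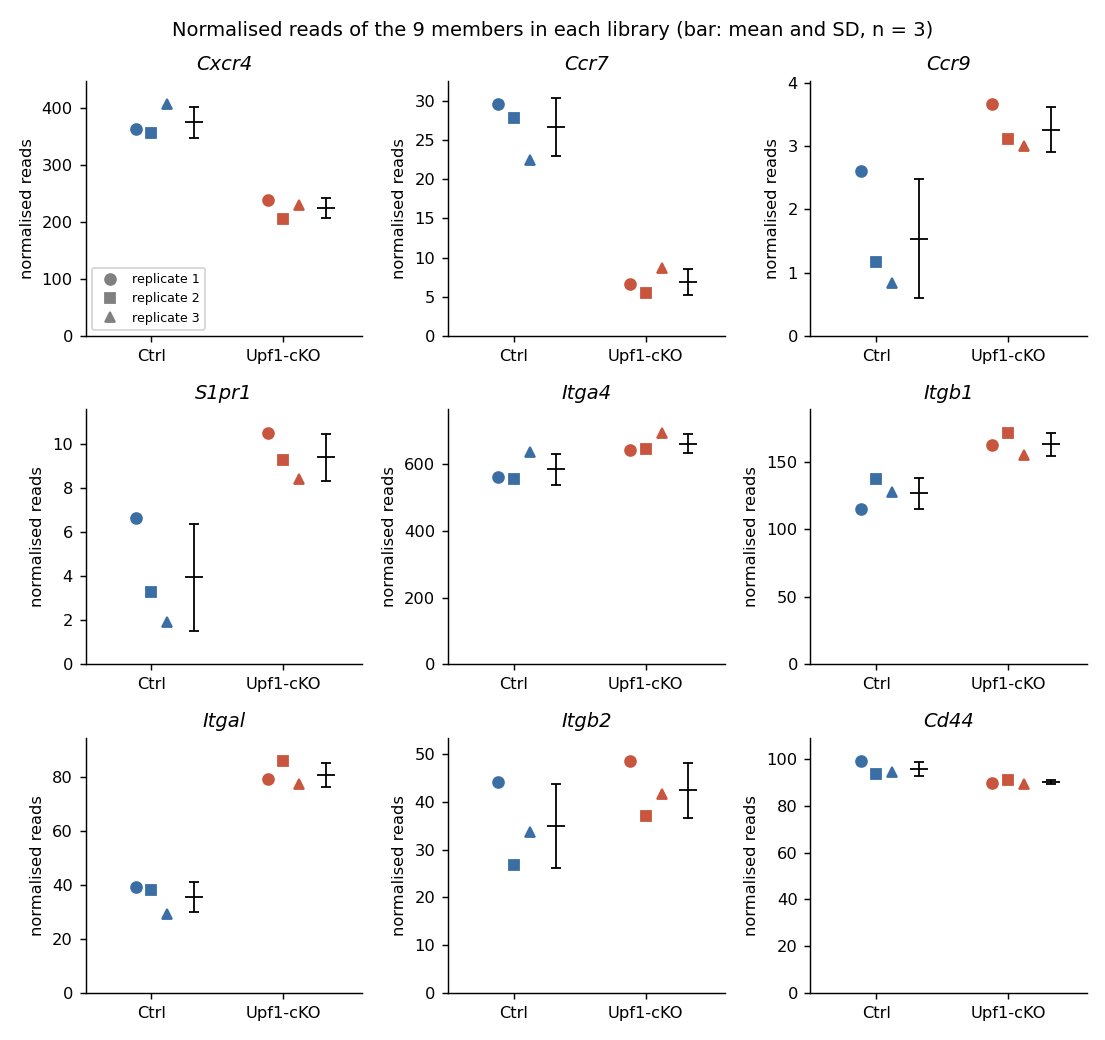
Normalised reads (vertical axes, from 0) of each of the 9 members in the 3 Ctrl and 3 Upf1-cKO libraries, with the mean and SD (n = 3) as bars and replicates as symbols. *Cxcr4* and *Ccr7* fell, the Upf1-cKO points of *Itgal* lie at 77.4 or more against at most 39.4 in Ctrl libraries, and the groups overlap in the *Itgb2* panel alone.

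*Cxcr4*, the CXCL12 receptor (Entrez 12767, chromosome 1, 128588199 to 128592299, minus strand, GRCm38), was at 363, 357 and 407 normalised reads in Ctrl libraries 1, 2 and 3 and at 238, 205 and 230 in Upf1-cKO libraries 1, 2 and 3. Every Upf1-cKO library lay well below the lowest Ctrl library. Means were 376 ± 27.2 and 224 ± 17.2 (SD, n = 3), a ratio of 0.598, and the log2 fold change was -0.74 (SE 0.080, limma adjusted p = 3.52e-07). Each library held between 2276 and 4098 *Cxcr4* reads. The fold change stayed between -0.85 and -0.54 over the 17 alternative fits, every one of which called it.

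*Ccr7*, the receptor for the lymph node chemokines CCL19 and CCL21 (Entrez 12775, chromosome 11, 99144199 to 99155077, minus strand), was at 29.6, 27.8 and 22.5 normalised reads in Ctrl libraries and at 6.59, 5.45 and 8.64 in Upf1-cKO libraries. Its ratio of 0.259 was the lowest among the 9 receptors, and the groups were far apart. It fell by 1.82 on the log2 scale (SE 0.16, limma adjusted p = 3.65e-08), from 60 to 278 reads per library.

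*S1pr1*, the S1P receptor of lymphocyte egress (Entrez 13609, chromosome 3, 115710433 to 115715055, minus strand), was at 6.64, 3.28 and 1.94 normalised reads in Ctrl libraries and at 10.5, 9.24 and 8.39 in Upf1-cKO libraries. The Upf1-cKO libraries were all higher, but the Ctrl libraries were scattered, and Ctrl library 1 came closest to the Upf1-cKO group. Means were 3.95 ± 2.42 and 9.37 ± 1.06 (SD, n = 3), and the log2 fold change was 1.17 (SE 0.28, limma adjusted p = 0.00258). Leaving out each library in turn gave log2 fold changes between 0.85, without Ctrl library 3, and 1.54, without Ctrl library 1, and the call held each time, with limma adjusted p up to 0.0307. The gene was read at low depth, from 19 to 107 reads per library.

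*Ccr9*, the CCL25 receptor (Entrez 12769, chromosome 9, 123767211 to 123783457, plus strand), was the least abundant member, at 2.6, 1.16 and 0.84 normalised reads in Ctrl libraries and 3.66, 3.11 and 2.99 in Upf1-cKO libraries. Ctrl library 1 was again the highest of its group, although still below every Upf1-cKO library. Its log2 fold change was 0.80 (SE 0.24, limma adjusted p = 0.00954). These values rest on 8 to 24 reads in Ctrl libraries and 34 to 37 in Upf1-cKO libraries, and the call was lost without Ctrl library 3 (0.60, limma adjusted p = 0.0555). *Ccr9* shares 2223 exon bases with annotated genes, *Slc6a20a* among them, and since strand was not used in counting its level is uncertain.

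Some markers of neutrophils were higher in Upf1-cKO libraries, as were the low receptors *S1pr1* and *Ccr9*. Of 20 neutrophil and myeloid markers in the table, 12 were higher and 1, *Itgam*, was lower in Upf1-cKO libraries, against 27.7% and 25.0% of all genes. The median log2 fold change of these markers was 1.40. Their summed level was 226, 117 and 76.1 normalised reads in Ctrl libraries 1, 2 and 3 and 655, 496 and 479 in Upf1-cKO libraries 1, 2 and 3. Within each group, this is the order of the libraries for *S1pr1* and *Ccr9* too, although without *Ngp* the sum of the other 19 markers in Upf1-cKO libraries was 507, 368 and 383, with library 2 lowest. The granule protein gene *Ngp* was at 44.9, 2.68 and 2.23 in Ctrl libraries and 148, 128 and 95.7 in Upf1-cKO libraries and did not pass the test (limma adjusted p = 0.0572). *Ly6g*, a defining neutrophil marker, had 0 reads in at least 1 library and lay at 0.405 in Ctrl libraries and 1.87 in Upf1-cKO libraries on average. *Itgam*, whose protein CD11b was gated out in the sort and pairs with ITGB2, was at 39.5, 33.8 and 26.3 in Ctrl libraries against 28.8, 23 and 21.5 in Upf1-cKO libraries (log2 fold change -0.42, limma adjusted p = 0.0199). The part of these cells in the results on *S1pr1*, *Ccr9*, *Itgb2* and *Itgal* was not tested.

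**Figure D2:**
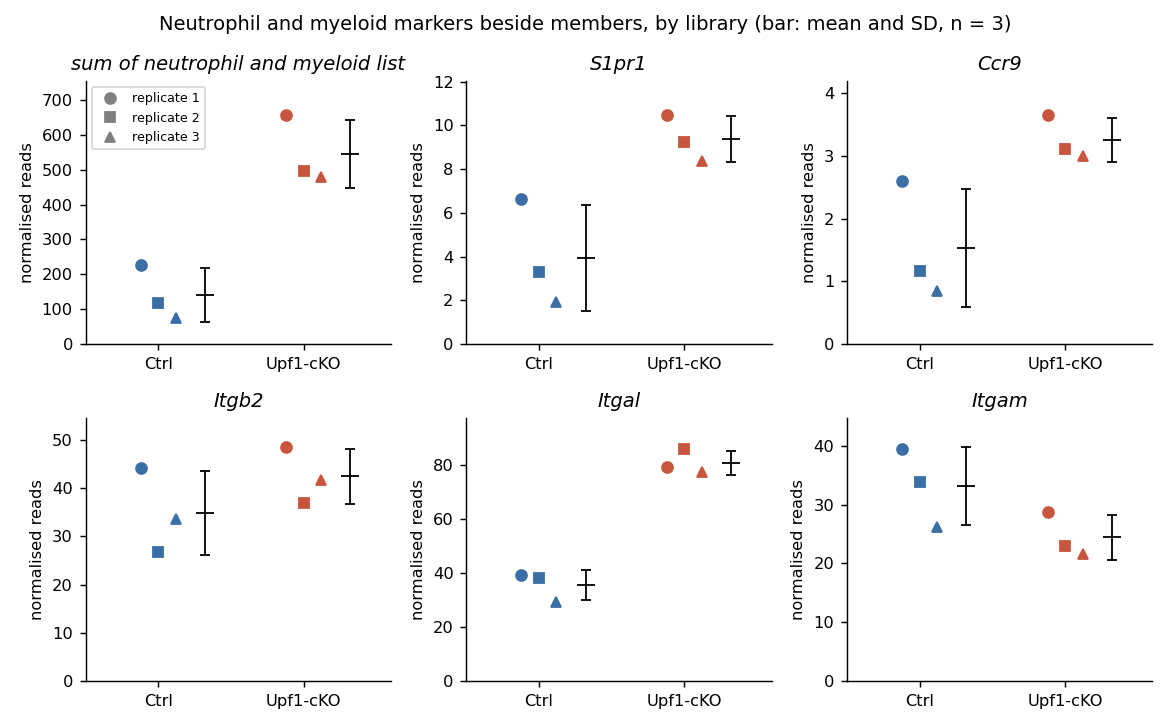
Normalised reads (vertical axes, from 0) by library of the summed neutrophil and myeloid markers, of 4 receptors and of *Itgam*, with the mean and SD (n = 3) as bars. Ctrl library 1 (circle) is the highest Ctrl library for the sum (226), for *S1pr1* (6.64), for *Ccr9* (2.6) and for *Itgb2* (44.2), and *Itgam* was lower in Upf1-cKO libraries whereas the sum was higher.

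The counts of the marker lists below stand against 27.7% of all genes higher and 25.0% lower. Of 12 dendritic cell markers in the table, *Ccr9* among them, 7 were higher and 0 were lower in Upf1-cKO libraries. Their summed levels were 309 to 333 in Ctrl and 394 to 419 in Upf1-cKO libraries. *Flt3*, a receptor shared with early progenitors, went from 2.03 to 29.8 normalised reads and *Ly6d* from 5.52 to 20.4, whereas *Siglech*, which defines plasmacytoid dendritic cells, was at 0.39 and 0.797 and did not pass the test. The T and NK cell list had 5 of 16 genes in the table, with 2 higher and 1 lower. Their summed level was between 73.0 and 104 in Ctrl and between 38.6 and 45.2 in Upf1-cKO libraries, but without *Lck*, the 1 lower gene, the other 4 summed to between 8.94 and 12.7 and between 14.2 and 19.1, the opposite direction. Late pre-B and later B cell markers, a stage beyond the CD2-negative gate, had 6 of 15 higher and 4 lower, and their summed level was between 444 and 459 in Ctrl libraries and between 268 and 311 in Upf1-cKO libraries. Without *Cd22* the other 14 summed to between 238 and 254 in Ctrl and between 245 and 277 in Upf1-cKO libraries. The median log2 fold change of the list was 0.16. The 4 lower genes were *Cd22*, *Il2ra* (13.3 in Ctrl and 1.67 in Upf1-cKO libraries), *Igkc* (41.2 and 21.1) and *Cd2*, and the 6 higher included *Cd74* (11.9 and 34.5). Of 7 plasma cell markers 1 was higher and 4 were lower, 1 of the 4, *Jchain*, being at or below 0.5 in every Upf1-cKO library. Their sums were 628 to 681 in Ctrl and 247 to 287 in Upf1-cKO libraries, and 173 to 209 and 137 to 159 without *Irf4*. Of 8 erythroid markers 0 were higher and 2 lower (sums of 620 to 647 and 377 to 405), and without *Tfrc*, the transferrin receptor gene that dividing cells of many types also use, the sums of 94.9 to 117 and 103 to 111 overlapped. Of 3 stromal and endothelial markers 1 was higher (*Col1a1*, at or below 0.5 in every Ctrl library; sums of 81.0 to 109 and 91.2 to 94.3). The lineage antibodies of the sort bind CD3e, CD11c and TER-119 among others, which gate out T cells, dendritic cells and erythroid cells, and the part of such cells in the results was not tested.

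*Itga4*, the alpha subunit of VLA-4 (Entrez 16401, chromosome 2, 79255426 to 79333114, plus strand), had the most reads of the receptors, at 564, 555 and 639 normalised reads in Ctrl libraries and 644, 647 and 695 in Upf1-cKO libraries. The groups did not overlap, but Ctrl library 3 almost reached the Upf1-cKO libraries. The log2 fold change was 0.18 (SE 0.074, limma adjusted p = 0.0488), just past the threshold. The call was lost in 10 of 17 alternatives, among them edgeR on the recovered reads (adjusted p = 0.0728), DESeq2 (adjusted p = 0.0827) and leaving out any library but Ctrl library 3. *Itga4* shares 1124 exon bases with *Cerkl*, which was at 4.9 normalised reads in Ctrl and 3.55 in Upf1-cKO libraries.

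*Itgb1*, the beta subunit that joins ITGA4 and many other alpha chains (Entrez 16412, chromosome 8, 128685654 to 128733579, plus strand), was at 115, 137 and 127 normalised reads in Ctrl libraries and 162, 171 and 155 in Upf1-cKO libraries. The increase was modest and present in every library. The log2 fold change was 0.36 (SE 0.083, limma adjusted p = 0.00122), and all 17 alternatives called it.

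*Itgal*, the alpha subunit of LFA-1 (Entrez 16408, chromosome 7, 127296139 to 127335137, plus strand), was at 39.4, 38.1 and 29.1 normalised reads in Ctrl libraries and 79.4, 86 and 77.4 in Upf1-cKO libraries. The ratio of means was 2.28, and the spread within each group was small beside the gap between them. Its log2 fold change was 1.18 (SE 0.11, limma adjusted p = 5.16e-08), with the same call in all alternatives. The order of the Ctrl libraries for *Itgal* was that of the myeloid sum, whereas among Upf1-cKO libraries *Itgal* was highest in library 2 and the myeloid sum in library 1.

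*Itgb2*, the beta subunit of LFA-1 and of the myeloid integrins (Entrez 16414, chromosome 10, 77530329 to 77565708, plus strand), was at 44.2, 26.8 and 33.6 normalised reads in Ctrl libraries and 48.6, 37 and 41.8 in Upf1-cKO libraries. The groups overlapped, since Ctrl library 1 stood above Upf1-cKO libraries 2 and 3. The log2 fold change was 0.30 (SE 0.16, limma adjusted p = 0.129). Without Ctrl library 1 it was 0.48 and past the threshold (limma adjusted p = 0.00397). Scaling to total reads (0.49, limma adjusted p = 0.0189) and the replicate block (0.30, limma adjusted p = 0.0288) also called it. Without Ctrl library 2, in contrast, it was 0.13 (limma adjusted p = 0.462).

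*Cd44*, the hyaluronan receptor (Entrez 12505, chromosome 2, 102811141 to 102901669, minus strand), was at 99.2, 93.7 and 94.6 normalised reads in Ctrl libraries and 89.9, 91.3 and 89.5 in Upf1-cKO libraries. The Upf1-cKO libraries were all slightly lower, and the values of the 6 libraries lay close together. The log2 fold change was -0.09 (SE 0.078, limma adjusted p = 0.378), its sign turned when libraries were scaled to total reads (0.12), and a value per gene does not separate the spliced forms of CD44.

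**Figure D3:**
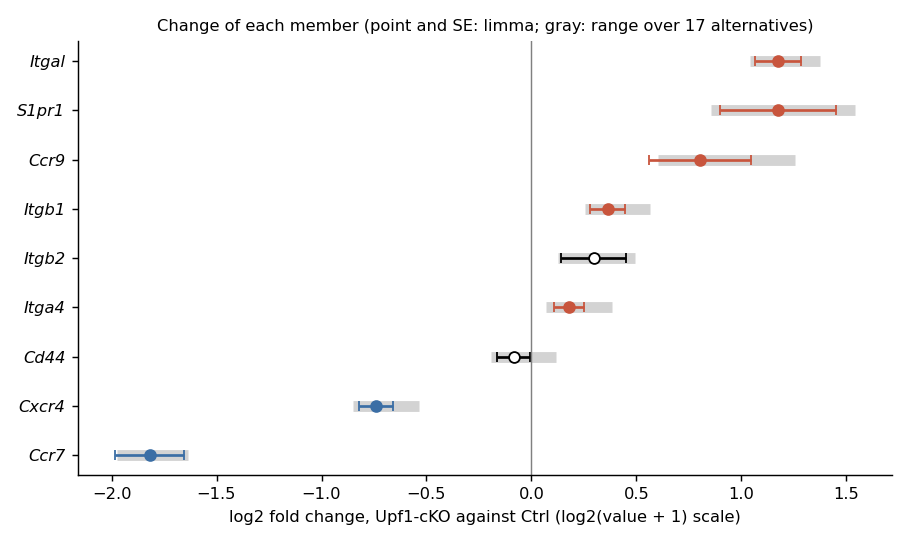
Log2 fold change of each member, Upf1-cKO against Ctrl, with limma's SE (horizontal axis, log2(value + 1) scale), and in gray the range over 17 alternative fits. Filled points passed the test and open points did not. *Cxcr4* (-0.74) and *Ccr7* (-1.82) lie left of 0 with their whole range, *Itgal* (1.18) and *S1pr1* (1.17) lie right of it, and the range of *Cd44* crosses 0.

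Per kilobase of annotated exon, *Cxcr4* led in both groups, with 208 normalised reads per kilobase in Ctrl libraries and 124 in Upf1-cKO libraries. *Itga4* followed with 41.9 and 47.4, and *Itgb1* with 31 and 39.9. In Ctrl libraries *Cd44* (14.1), *Ccr7* (13.5) and *Itgb2* (11.4) came next, and neighbours among these overlapped between libraries, before *Itgal* (5.41), *S1pr1* (1.3) and *Ccr9* (0.15). In Upf1-cKO libraries the order per kilobase after *Itgb1* was *Itgb2* (13.9), *Cd44* (13.3), *Itgal* (12.3), *Ccr7* (3.49), *S1pr1* (3.08) and *Ccr9* (0.317), with overlap between *Itgb2* and *Cd44* and between *Ccr7* and *S1pr1*. *Ccr7* thus stood above *Itgal* per kilobase in Ctrl libraries and below it in Upf1-cKO libraries. With the length of the longest transcript in place of all exon bases, the order in Ctrl libraries was the same, and in Upf1-cKO libraries *Cd44* (16.1) and *Itgal* (15.5) came before *Itgb2* (14.3).

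Ratios between receptors were taken within each library, as differences of log2(value + 1). With 3 libraries against 3, the exact two-sided permutation test cannot give a p below 0.1, and p-values were adjusted over the 5 ratios. The log2 ratio of *S1pr1* to *Cxcr4*, an egress against a retention receptor, was -5.58, -6.39 and -7.12 in Ctrl libraries and -4.38, -4.33 and -4.62 in Upf1-cKO libraries. The ratio was higher by 1.92 on the log2 scale in Upf1-cKO libraries, with groups that did not overlap (exact permutation p = 0.1, adjusted 0.167). The added 1 lowers this difference for a gene as scarce as *S1pr1*, and without a pseudocount it was 2.17. Leaving out 1 library gave differences between 1.54, without Ctrl library 3, and 2.31, without Ctrl library 1. *Ccr7* to *Cxcr4* went from -3.57, -3.63 and -4.12 to -4.98, -5 and -4.58, so that *Ccr7* was lower relative to *Cxcr4* as well (difference -1.08, exact permutation p = 0.1, adjusted 0.167).

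For LFA-1, *Itgal* to *Itgb2* had log2 ratios of -0.16, 0.49 and -0.20 in Ctrl libraries and 0.70, 1.19 and 0.87 in Upf1-cKO libraries, a difference of 0.88 with no overlap (exact permutation p = 0.1, adjusted 0.167). For VLA-4, *Itga4* to *Itgb1* averaged 2.20 ± 0.17 and 2.02 ± 0.13 on the log2 scale (SD, n = 3), and the groups overlapped (exact permutation p = 0.2, adjusted 0.25). *Itgb7*, the other beta partner of ITGA4, stood at 1.75, 6.72 and 2.83 normalised reads in Ctrl libraries and 3.27, 3.38 and 2.91 in Upf1-cKO libraries, far below *Itgb1*. Its log2 ratio to *Itgb1* averaged -4.87 and -5.29, a difference smaller than the spread among Ctrl libraries (exact permutation p = 0.4, adjusted 0.4), and it shrank to -0.06 without Ctrl library 2.

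**Figure D4:**
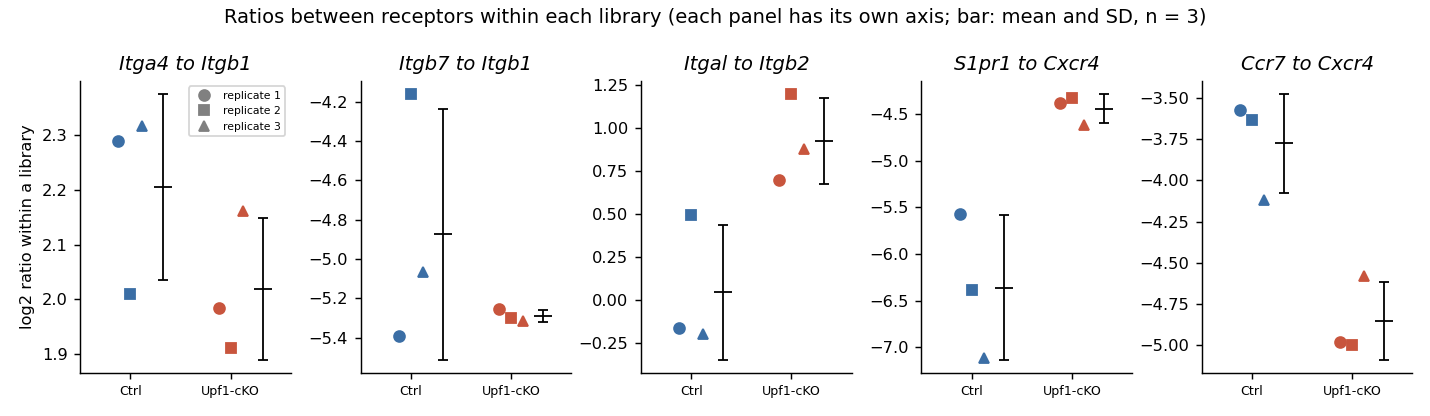
Log2 ratios between receptors within each library (vertical axes, each with its own range), with the mean and SD (n = 3) as bars. The groups separate for *Itgal* to *Itgb2*, *S1pr1* to *Cxcr4* and *Ccr7* to *Cxcr4*, and overlap for the ratios to *Itgb1*.

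The other genes of these pathways were counted in lists. Of 23 other chemoattractant receptors in the table, 13 were higher and 1 was lower in Upf1-cKO libraries. Of the 13, 6 (*Ackr2*, *S1pr3*, *P2ry12*, *Cmklr1*, *C5ar1* and *Fpr1*) were at or below 0.5 in every Ctrl library, so the table's minimum let them in through the Upf1-cKO libraries alone and their direction was fixed by it. Of the other 17 receptors, 7 were higher, against 27.7% of all genes, and 1 was lower, with a median log2 fold change of 0.54. Most were scarce, and the neutrophil and myeloid markers, with a median of 1.40, moved in the same direction; their part in these values was not tested. *Ackr2*, a scavenger of inflammatory chemokines, was at 0.156 ± 0.11 normalised reads in Ctrl libraries and 3.5 ± 0.52 in Upf1-cKO libraries (SD, n = 3), and *Cxcr2*, the neutrophil chemokine receptor, at 0.439 ± 0.59 and 3.88 ± 0.69, each with 0 reads in at least 1 Ctrl library. Ctrl library 1 had the highest *Cxcr2* value of its group (1.11, against 0.152 and 0.05), as it had the highest myeloid sum. *Cmklr1*, the chemerin receptor, was at 0.223 and 2.88, and *S1pr3*, another S1P receptor, at 0.292 and 2.38. *S1pr4*, named after its values were seen, is the abundant S1P receptor here, at 40 ± 4.2 in Ctrl and 66.4 ± 9.15 in Upf1-cKO libraries (log2 fold change 0.71, limma adjusted p = 2.72e-05). *Cxcr5*, the follicle homing receptor, was at 2.47 and 3.04 and did not pass the test (limma adjusted p = 0.508).

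Of 17 genes of S1P supply and receptor control, 7 were higher and 2 lower, against 27.7% and 25.0% of all genes (median log2 fold change 0.33). *Cd69*, whose protein binds S1PR1 and draws it from the cell surface, was at 7.81, 6.42 and 11.8 normalised reads in Ctrl libraries and 49.6, 46.1 and 44.7 in Upf1-cKO libraries. *Cd69* rose more than *S1pr1*, with a log2 fold change of 2.34 (SE 0.16, limma adjusted p = 1.71e-09). *Klf2*, an activator of *S1pr1* transcription, was at 53.8, 22 and 38.8 in Ctrl libraries and 20.1, 22 and 18.8 in Upf1-cKO libraries and did not pass the test (log2 fold change -0.79, limma adjusted p = 0.0863). *Klf3* (log2 fold change 1.57), *Abcc1*, an exporter that can carry S1P (1.61), and *Plpp3*, a lipid phosphatase that breaks down S1P (1.11), were higher. *Foxo1*, a transcription factor of B cell precursors that acts on *Klf2*, was higher at 148 ± 11.3 against 113 ± 23.4 (SD, n = 3; log2 fold change 0.41, limma adjusted p = 0.00968), although its libraries overlapped.

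Ligands of the receptors were measured in the same sorted cells, for 7 of 16 genes. Of the 7, 2 were higher and 3 lower, against 27.7% and 25.0% of all genes. *Spp1*, which encodes osteopontin, a ligand of CD44 and of ITGA4 integrins, was at 8.76, 12.3 and 6.21 normalised reads in Ctrl libraries and 1.61, 0.586 and 1.31 in Upf1-cKO libraries. *Spp1* fell by 2.20 on the log2 scale (limma adjusted p = 5.78e-07). The LFA-1 ligands moved in opposite directions: *Icam1* rose from 11.4 to 21.8 (log2 fold change 0.89, limma adjusted p = 5.51e-05), and *Icam2* fell from 31.8 to 23.1 (log2 fold change -0.44, limma adjusted p = 0.00767). *Ccl25*, the ligand of CCR9, was at 3.55 and 5.57 (log2 fold change 0.54, limma adjusted p = 0.026).

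Below the chemokine receptors, 19 of 43 genes of receptor signalling and desensitisation were lower, against 25.0% of all genes. In the same list 9 were higher, against 27.7% of all genes, and the median log2 fold change was 0.03. *Ptk2b*, which encodes the kinase PYK2, went from 182 ± 15 to 91 ± 3.9 normalised reads (SD, n = 3; log2 fold change -0.99, limma adjusted p = 1.13e-08). *Rhoh*, a small GTPase of blood cells (log2 fold change -1.26), and *Rgs2*, a regulator of G-protein signalling (-1.19), were lower, and *Grk3*, a kinase that desensitises G-protein-coupled receptors, was higher (1.14).

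Of 16 other integrin subunits, 3 were higher and 4 lower, against 27.7% and 25.0% of all genes (median log2 fold change -0.14). *Itga3*, 1 of the 3, was at or below 0.5 in every Ctrl library. *Itga9*, a further partner of ITGB1, went from 13.7 ± 1.19 to 3.81 ± 1.01 normalised reads (SD, n = 3; log2 fold change -1.63, limma adjusted p = 6.76e-07). The laminin receptor subunit *Itga6* (-0.91) and the vitronectin receptor subunit *Itgav* (-0.83) were lower too, whereas *Itga10*, a collagen receptor subunit, was higher (1.08). Partners of ITGB1 therefore changed in both directions while *Itgb1* was higher.

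Among 46 genes of integrin activation and linkage, 12 were higher and 19 lower, against 27.7% and 25.0% of all genes (median log2 fold change -0.12). *Rasgrp1*, an exchange factor for Ras proteins, was at 40.1, 30.7 and 22.5 normalised reads in Ctrl libraries and 1.61, 1.94 and 0.801 in Upf1-cKO libraries. It had the strongest fall of the listed genes, with a log2 fold change of -3.70 (SE 0.22, limma adjusted p = 2.2e-10). *Ptk2*, which encodes focal adhesion kinase, rose from 2.87 to 13.1 (log2 fold change 1.87), opposite to its relative *Ptk2b*. *Rap1gap2*, which turns off the integrin activator RAP1 (1.81), and *Fyb*, an adaptor between receptors and integrins (1.25), were also higher.

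Of 46 other homing and adhesion molecules, 7 were higher and 16 lower, against 27.7% and 25.0% of all genes (median log2 fold change -0.05). *Esam*, 1 of the 16, was at or below 0.5 in every Upf1-cKO library, so the table's minimum let it in through the Ctrl libraries alone and fixed its direction. *Cd24a*, a surface protein of B cell precursors, went from 1231, 1325 and 1411 normalised reads in Ctrl libraries to 327, 374 and 333 in Upf1-cKO libraries (log2 fold change -1.94, limma adjusted p = 5.97e-13). *Cd2*, whose protein was gated out in the sort, was at 2.9 and 0.653 (log2 fold change -1.21). *Sema7a*, a semaphorin that binds ITGB1 integrins (2.09), and *Emb*, embigin (1.57), were higher. *Spn* did not pass the test (log2 fold change 0.06, limma adjusted p = 0.579).

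**Figure D5:**
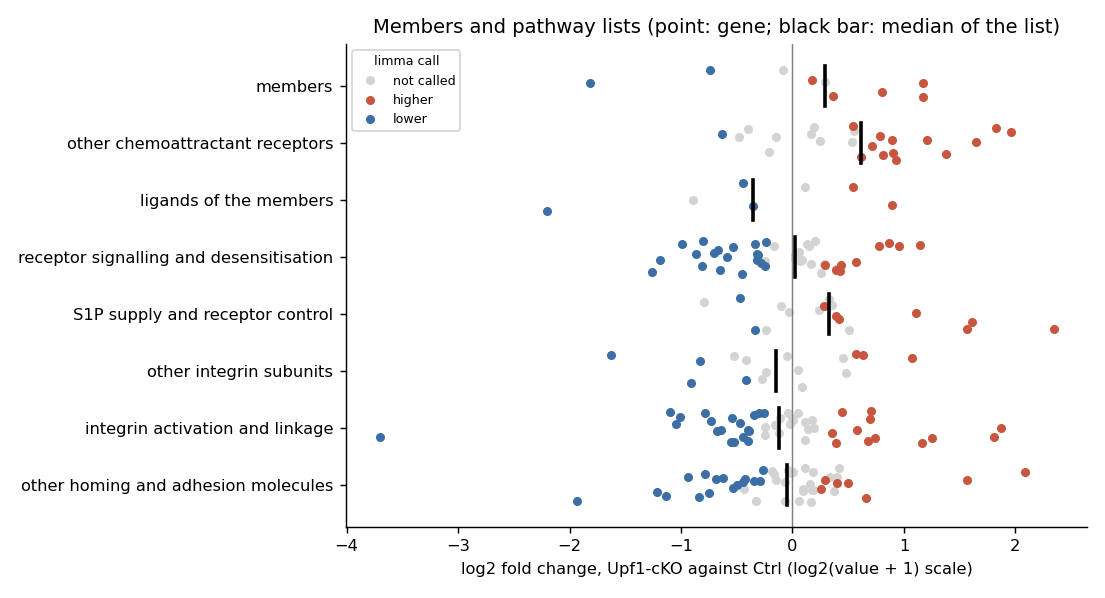
Log2 fold change of each gene of the members and of 7 pathway lists (horizontal axis, log2(value + 1) scale), coloured by limma call, with the median of each list as a black bar. The median of the other chemoattractant receptors is 0.61, with 6 genes that the table's minimum admitted through the Upf1-cKO libraries alone, and the medians of the lists of integrin subunits, of integrin activation and linkage and of other adhesion molecules are -0.14, -0.12 and -0.05.

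The gene whose level followed each receptor most closely over the 6 libraries was named by Pearson's r of log2(value + 1) among genes with a mean of at least 10. It was *Atl2* for *Cxcr4* (r = 0.999), *Usp5* for *Ccr7* (0.999), *Arhgef3* for *Itgal* (0.998) and *Ssr3* for *Itgb1* (0.997). *Cibar1* was the closest to both *S1pr1* and *Ccr9* (0.995 for each), at 10.8 ± 2.5 and 15.4 ± 0.568 normalised reads (SD, n = 3). *2810013P06Rik* followed *Cd44* (0.997), *Tex10* followed *Itga4* (0.993) and *Bora* followed *Itgb2* (0.992). The libraries share their group difference, so such values are common: 715 genes exceeded an r of 0.95 with *Cxcr4*, 960 with *Ccr7*, 796 with *Itgal* and 14 with *Itgb2*.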

How the data were processed

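RNA was sequenced from sorted early LPre-B cells in 6 libraries, 3 Ctrl and 3 Upf1-cKO, grouped by their labels. The methods of the study describe depletion of ribosomal RNA and single-end reads aligned to GRCm38 (mm10), with strand ignored, before reads were counted for each gene. The submitters' processing notes name cutadapt 4.0, HISAT2, featureCounts 2.0.1 and limma 3.48.0. The deposited signal is linear, and the values equal reads plus 0.5 per 1e6 reads of an effective library size, and whole reads were recovered for 100.0% of values within 0.1 read. Every gene exceeded 0.5 per 1e6 in at least 3 libraries, as did each of the 9 members within both groups. Symbols came from RefSeq (GRCm38.p6; 13008 genes) and exon lengths from GENCODE M21 (12155 genes).

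The log2(value + 1) of the groups was compared in R 4.3.3 by limma 3.58.1 (eBayes with trend and robust options, no covariate), and p-values were adjusted over 13426 genes by Benjamini-Hochberg. The test was also run on simulated reads with the same dispersion for every gene and far fewer changed genes than were called here, which checks the code alone. Within-library ratios were compared by exact permutation, two-sided, of the 6 libraries in 20 assignments. Alternatives were edgeR 4.0.16, DESeq2 1.42.0 and voom on recovered reads, median centring, scaling to total reads, quantile normalization, a pseudocount of 0.1 or none, a minimum mean log2 value of 1, eBayes without trend, the replicate block and leaving out each library, and, chosen after seeing the data, the longest transcript as length, lists without genes at or below 0.5 in every library of 1 group, and marker sums without the gene whose group means differed most. No 2 libraries of a group agreed within sampling noise (chi-square of their reads between 4.53 and 23.4 per degree of freedom). No molecular identifiers were used, so reads may repeat a molecule.

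The members and lists were chosen with earlier results of these data known. Named genes are the 9 members, *Upf1*, at most 4 called genes per pathway list by absolute log2 fold change, *Klf2*, *Itgb7*, *Cxcr5*, *Ackr3* (not analysed here), *Foxo1* and *Spn*, and the gene most like each member. Some items that the rule names are not reported here. Marker lists are given by counts and sums, and the few markers named beside them were chosen after their values were seen.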

Additional observations from a re-analysis of the deposited data

How the results depend on the processing

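Counts of members called ranged from 4 to 6 higher and from 2 to 3 lower over the 17 alternatives. *Cxcr4*, *Ccr7*, *S1pr1*, *Itgb1* and *Itgal* kept their direction and call in each of the 17. The 5 ratios kept their sign in the 9 alternatives that apply to them, and *Itgb7* to *Itgb1* ranged from -0.67 to -0.06 on leaving out 1 library. Scaling to total reads, which moved the median of all genes to 0.19, called 5169 genes higher and 1936 lower in place of 3725 and 3351, and *Cd44* changed sign (0.12, limma adjusted p = 0.261). Median centring, with a median of -0.10, called 2992 and 4355, took away the call of *Itga4* (0.07, limma adjusted p = 0.438) and called *Cd44* lower (-0.19, limma adjusted p = 0.043). Quantile normalization called 3330 and 3751. The cause was not tested beyond the shift of all genes. Whether the replicate numbers pair the samples is not known. Deviations of same-numbered libraries from their group means correlated at -0.03 to 0.08, which cannot settle it with 3 libraries per group. With the replicate block, 3668 genes were higher and 3321 lower, *Itga4* lost its call (adjusted p = 0.0619) and *Itgb2* gained one (adjusted p = 0.0288). Leaving out 1 library gave log2 fold changes of *Itga4* between 0.14 and 0.24 and of *Ccr9* between 0.60 and 1.09. Per kilobase of longest transcript, *Ccr9* was at 0.296 and 0.626 in Ctrl and Upf1-cKO libraries. Read depth limits *Ccr9* and *S1pr1*.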
